A study of Rattus norvegicus with 4 samples.

Results

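The transition between epithelial and mesenchymal states was followed through 10 genes that build cell junctions or switch them off. They were taken from the RNA-seq tables by gene symbol, each symbol matching 1 row, and make up 10 of the 32753 genes listed. The epithelial group held Cdh1, Epcam, Cldn4 and Cldn6, the mesenchymal group held Cdh2, Vim, Zeb2, Snai1 and Snai2, and the gap junction gene Gja1 was kept apart from both. The samples were rat embryoid bodies, the aggregates in which pluripotent cells begin to differentiate, collected at day 4 as 2 Kcnh2-/- and 2 wild-type (WT) libraries from embryonic stem cells of the strain labelled DASD. Kcnh2 encodes the pore subunit of the ERG1 potassium channel, and the labels give neither the altered allele nor the number of clones. Both genotypes were aggregated for 2 days in hanging drops with CHIR9902 (0.75 µM), PD0325901 (0.1 µM) and Y27632 (10 µM), plated on laminin for 24 hours with the first 2 of these agents, and then kept for 1 day in the medium named DM.

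In an epithelium, E-cadherin and claudins seal neighbouring cells together. During gastrulation cells that leave the epiblast lose E-cadherin, gain N-cadherin and vimentin filaments, and migrate as mesoderm or endoderm. Factors of the Snail and Zeb families repress E-cadherin and other junction genes by binding E-box motifs in their promoters.

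Values were RPKM, reads scaled to transcript length and library size, so that levels of different genes can be compared within a library. The absolute read depth is unknown. Kcnh2 RNA was at 0.108 and 0.504 RPKM in Kcnh2-/- replicates 1 and 2, against 2.61 and 1.45 RPKM in WT replicates 1 and 2 (log2 difference -1.21 ± 0.43 SE, limma adjusted p = 0.980). The sum of all RPKM values followed the replicate number, at 1.09e+08 and 8.93e+06 in Kcnh2-/- replicates 1 and 2 and 7.95e+07 and 1.17e+07 in WT replicates 1 and 2, but 90.3% to 99.5% of it lay outside protein-coding genes. The sum over protein-coding genes did not follow the number, at 5.89e+05 and 8.66e+05 in Kcnh2-/- and 1.02e+06 and 7.12e+05 in WT. Over all genes tested, Kcnh2-/- replicate 1 correlated with Kcnh2-/- replicate 2 at 0.859 and with each WT replicate at 0.833 (Pearson, across genes that are not replicates). Kcnh2-/- replicate 2 correlated with WT replicate 2 at 0.903 and with WT replicate 1 at 0.777. The WT replicates correlated with each other at 0.805. The labels name no batch and no pairing, and differences within each number are given beside the pooled ones as a description. The genotypes also differed in Y-linked RNA: the translation initiation gene Eif2s3y was at 0.0574 and 0.140 RPKM in Kcnh2-/- and at 153 and 135 RPKM in WT. Tested X-linked protein-coding genes averaging at least 5 RPKM numbered 267. Their median log2 difference was 0.77 within replicate 1 and 0.74 within replicate 2, the highest of 21 chromosomes both times. No gene of the set lies on X or Y, but these differences ran with genotype. Their part in the levels of the set cannot be told apart from that of Kcnh2 loss and was not tested. The labels do not say whether replicates were separate cultures, so p-values measure only the spread between these libraries, and with 2 libraries against 2 the smallest p that exact permutation allows is 0.333.

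In every library E-cadherin stood above N-cadherin and Epcam above vimentin. The margin of Epcam was small in WT replicate 1, at 171 RPKM against 153 for Vim. In that library Vim exceeded Cdh1, Cldn4 and Cldn6. The mean log2 level of the mesenchymal genes differed by -0.84 between Kcnh2-/- and WT, and replicate 2 differed from replicate 1 by -1.05 in Kcnh2-/- and -2.07 in WT. WT replicate 1 stood highest for Cdh2, Vim, Zeb2 and Snai2. Of the 10 genes, 7 reached 1 RPKM in at least 2 libraries and were tested, and 0 of the 7 passed an adjusted p of 0.05 in limma. By the same rule 0.113% of all 12355 genes tested were called. No member had an unadjusted p under 0.05, the smallest being 0.0529 for Gja1. Snai1, Snai2 and Zeb2 did not reach the filter and are described without a test.

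**Figure D1:**
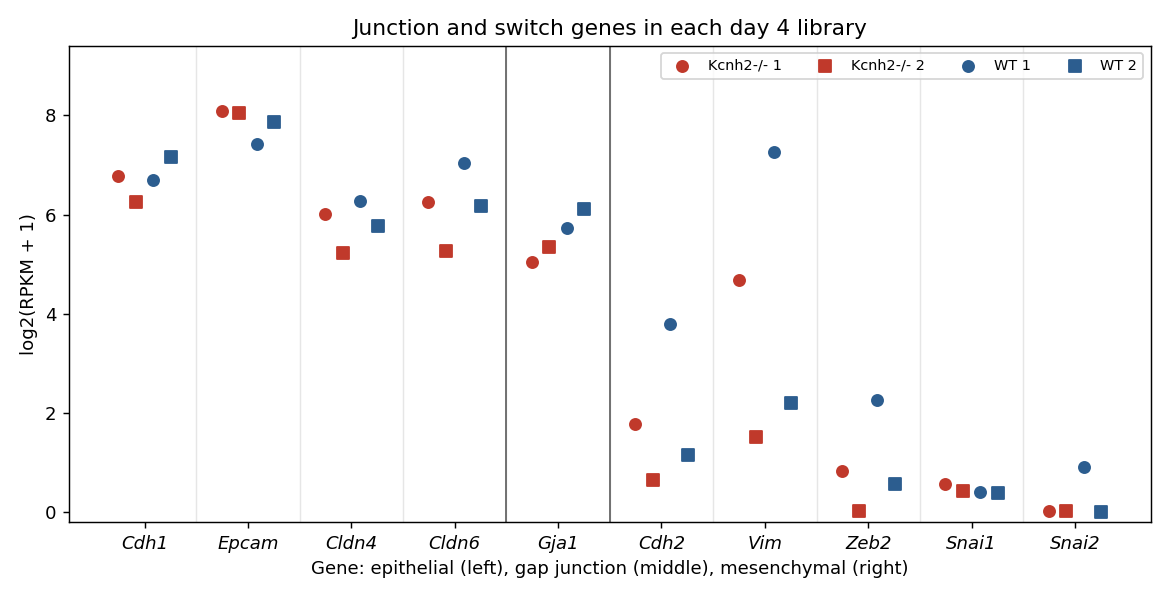
The vertical axis is log2(RPKM + 1) and the horizontal axis the 10 genes, with 1 point per library, red for Kcnh2-/- and blue for WT, circles for replicate 1 and squares for replicate 2. Epithelial genes lie in a narrow band in all 4 libraries, while Vim spans 1.85 to 153 RPKM.

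E-cadherin (Cdh1, rn6 chromosome 19, 38768466 to 38838395), the adhesion receptor of epithelial adherens junctions, was at 110 and 75.4 RPKM in Kcnh2-/- replicates 1 and 2, against 103 and 142 RPKM in WT replicates 1 and 2. The lowest value was Kcnh2-/- replicate 2 and the highest WT replicate 2, and the groups overlapped. The log2 difference was -0.41 ± 0.33 (SE, limma adjusted p = 0.980), made up of 0.0949 within replicate 1 and -0.91 within replicate 2.

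Epcam (rn6 chromosome 6, 11282215 to 11298180), a surface glycoprotein that pluripotent and epithelial cells share, was the member with the highest level in every library. It stood at 272 and 263 RPKM in Kcnh2-/- and at 171 and 234 RPKM in WT, the means being 268 ± 5.73 in Kcnh2-/- and 202 ± 44.4 in WT (SD, n = 2 each). Both Kcnh2-/- libraries lay above both WT libraries, as they did for 16.7% of all genes tested. The log2 difference of 0.42 ± 0.29 (SE) did not pass (limma adjusted p = 0.980), and it was 0.67 within replicate 1 and 0.17 within replicate 2. Cdh1 and Epcam thus did not keep a fixed ratio: Epcam was 2.48 and 3.49 times Cdh1 in Kcnh2-/-, against 1.67 and 1.64 times in WT, on the RPKM scale.

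The claudins form the strands of tight junctions. Cldn6 (rn6 chromosome 10, 13000089 to 13002862), a claudin of embryonic epithelia, was at 75.0 and 37.2 RPKM in Kcnh2-/- and at 130 and 71.2 RPKM in WT. Its groups overlapped by the small margin between Kcnh2-/- replicate 1 and WT replicate 2. The log2 difference was -0.85 ± 0.49 (SE, limma adjusted p = 0.980), and it was similar within each number, at -0.79 and -0.92. Cldn4 (rn6 chromosome 12, 24761209 to 24763005), a sealing claudin, was at 63.4 and 36.6 RPKM in Kcnh2-/- and at 76.8 and 53.9 RPKM in WT, with overlapping groups. The difference of -0.41 ± 0.38 on the log2 scale (SE, limma adjusted p = 0.980) was made up of -0.27 within replicate 1 and -0.55 within replicate 2. For both claudins replicate 2 was the lower library within each genotype, by 0.99 and 0.86 (Cldn6) and by 0.78 and 0.50 (Cldn4) in Kcnh2-/- and WT on the log2 scale.

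RefSeq promoter windows, running from 250 bases before to 50 after the start of the gene, were found for 6 of the 10 genes: Epcam, Cldn6, Gja1, Vim, Snai1 and Zeb2. The E-box that Snail and Zeb factors prefer was searched as CAGGTG and its reverse complement CACCTG. Of 33469 windows, 18.84% held at least 1 match. Cldn6 held 3 matches, Epcam and Snai1 1 each, and Vim, Gja1 and Zeb2 0. A match is a description of these letters and shows no binding. The windows of the epithelial genes Epcam and Cldn6 and of the mesenchymal gene Vim are shown 5′ to 3′ to set the promoters of both groups side by side, with matches in capitals.
Epcam, GRCr8 chr6:12649629-12649928, minus strand: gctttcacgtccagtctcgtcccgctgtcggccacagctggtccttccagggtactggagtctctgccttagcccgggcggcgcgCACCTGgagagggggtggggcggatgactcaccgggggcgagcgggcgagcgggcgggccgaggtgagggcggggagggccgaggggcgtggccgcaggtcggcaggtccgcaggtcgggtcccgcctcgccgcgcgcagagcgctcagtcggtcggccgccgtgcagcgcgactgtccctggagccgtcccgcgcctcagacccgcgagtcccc
Cldn6, GRCr8 chr10:13215558-13215857, plus strand: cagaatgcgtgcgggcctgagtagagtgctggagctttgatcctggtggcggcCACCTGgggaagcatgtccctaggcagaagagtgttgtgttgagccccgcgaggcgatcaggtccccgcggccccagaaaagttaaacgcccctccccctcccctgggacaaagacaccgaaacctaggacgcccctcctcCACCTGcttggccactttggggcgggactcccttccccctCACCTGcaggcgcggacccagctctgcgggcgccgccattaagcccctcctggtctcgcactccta
Vim, GRCr8 chr17:81577011-81577310, plus strand: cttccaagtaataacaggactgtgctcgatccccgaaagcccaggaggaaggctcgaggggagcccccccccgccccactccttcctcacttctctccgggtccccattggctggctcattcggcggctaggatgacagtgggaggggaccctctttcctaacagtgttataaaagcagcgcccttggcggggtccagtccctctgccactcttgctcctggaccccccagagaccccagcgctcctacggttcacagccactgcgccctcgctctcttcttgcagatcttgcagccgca
The match in Epcam began 165 bases before the start, and those in Cldn6 began 197, 56 and 16 bases before it. The Epcam window was 75.7% G and C with 40 CpG pairs, Cldn6 was 65.0% with 18, and Vim was 62.0% with 14.

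Vimentin (Vim, rn6 chromosome 17, 80882665 to 80891212), the intermediate filament of mesenchymal cells, varied most of the 10 on the log2(RPKM + 1) scale. It was at 24.8 and 1.85 RPKM in Kcnh2-/- replicates 1 and 2, and at 153 and 3.60 RPKM in WT replicates 1 and 2. Replicate 1 was above replicate 2 by 13.4-fold in Kcnh2-/- and by 42.6-fold in WT, so that Kcnh2-/- replicate 1 lay above WT replicate 2 and the groups overlapped. Within each number the Kcnh2-/- library was the lower one, with WT 6.19 times higher in replicate 1 and 1.95 times higher in replicate 2. The pooled log2 difference of -1.64 ± 2.00 (SE, limma adjusted p = 0.980) was smaller than its error, and leaving out WT replicate 1 gave 0.90, while leaving out Kcnh2-/- replicate 2 gave -0.0485; each sets 1 library against a pair.

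N-cadherin (Cdh2, rn6 chromosome 18, 8146970 to 8360684), the cadherin of mesoderm and neural cells, had the same order of libraries as Vim. It was at 2.43 and 0.562 RPKM in Kcnh2-/-, against 12.9 and 1.22 RPKM in WT. The groups overlapped, since Kcnh2-/- replicate 1 exceeded WT replicate 2. The log2 difference was -1.26 ± 1.01 (SE, limma adjusted p = 0.980), with -2.02 within replicate 1 and -0.51 within replicate 2. Without WT replicate 1 it was 0.0600, so its sign rested on that library.

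Zeb2 (rn6 chromosome 3, 29862472 to 29996865), a zinc finger repressor of E-cadherin, was at 0.770 and 0.0242 RPKM in Kcnh2-/- and at 3.83 and 0.486 RPKM in WT. Only WT replicate 1 was above 1 RPKM, and Kcnh2-/- replicate 1 again lay above WT replicate 2. The log2(RPKM + 1) values differed by -1.45 within replicate 1 and by -0.54 within replicate 2. Chromosome 3 as a whole was lower in Kcnh2-/- than in WT within replicate 2. Over 596 tested protein-coding genes there that averaged at least 5 RPKM, the median difference was 0.0369 within replicate 1 and -0.31 within replicate 2. By the same rule it was -0.355 and -0.379 on chromosomes 13 and 16 within replicate 2. The next lowest of the 21 chromosomes was chromosome 20, at 0.0639. Over all genes tested, without these limits, the median within replicate 2 was 0.0266. Such a difference does not show which library moved. The part of chromosome 3 in the Zeb2 difference within replicate 2 was not tested.

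Of the Snail genes, Snai2 (rn6 chromosome 11, 90403332 to 90406797) was at 0.0252 and 0.0244 RPKM in Kcnh2-/-, and at 0.892 RPKM and listed at 0 in WT replicates 1 and 2. Snai1 (rn6 chromosome 3, 164274709 to 164279378) was at 0.483 and 0.339 RPKM in Kcnh2-/- and at 0.327 and 0.302 RPKM in WT. Both repress E-cadherin where they are active, Snai1 mainly at the primitive streak and Snai2 in later mesenchyme in the mouse. Neither reached 1 RPKM in any library, and Snai1 did not share the peak of WT replicate 1 that Vim, Cdh2, Zeb2 and Snai2 had. At this level and with the depth unknown no difference between genotypes could be detected.

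Connexin 43 (Gja1, rn6 chromosome 20, 37876649 to 37889089), the channel protein of gap junctions in many cell types including pluripotent cells, was the member whose groups stood apart on the low side. It was at 31.8 and 39.9 RPKM in Kcnh2-/- and at 52.4 and 68.7 RPKM in WT, the means being 35.9 ± 5.70 in Kcnh2-/- and 60.5 ± 11.5 in WT (SD, n = 2 each). Both Kcnh2-/- libraries lay below both WT libraries, as they did for 15.3% of all genes tested. The log2 difference was -0.74 ± 0.28 (SE, limma adjusted p = 0.980), with -0.70 within replicate 1 and -0.77 within replicate 2. Unlike Vim and Cdh2, Gja1 was higher in replicate 2 than in replicate 1 in both genotypes, by 0.32 in Kcnh2-/- and 0.38 in WT on the log2 scale.

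Within each number, 5 of the 7 tested members (Cdh2, Cldn4, Cldn6, Gja1 and Vim) were lower in Kcnh2-/- both times, against 28.1% of all genes tested. Epcam was higher both times, as were 30.8% of all genes, and Cdh1 had opposite signs. The 7 were above 1 RPKM in all 4 libraries, except Cdh2 in Kcnh2-/- replicate 2. The members were chosen with earlier results of these data known, so these counts are a description only.

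The 2 groups of genes were also set side by side. The mean log2(RPKM + 1) of the 4 epithelial genes was 6.78 and 6.20 in Kcnh2-/- replicates 1 and 2, against 6.86 and 6.75 in WT replicates 1 and 2. Their RPKM summed to 520 and 413 in Kcnh2-/- and to 480 and 501 in WT. The 5 mesenchymal genes had a mean log2(RPKM + 1) of 1.58 and 0.53 in Kcnh2-/-, against 2.93 and 0.86 in WT, and summed to 28.5 and 2.79 RPKM in Kcnh2-/- and 171 and 5.61 RPKM in WT. Most of these sums was Vim.

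The epithelial mean less the mesenchymal mean was 5.21 and 5.67 in Kcnh2-/- and 3.92 and 5.89 in WT, or 5.44 ± 0.33 in Kcnh2-/- and 4.91 ± 1.39 in WT (SD, n = 2 each). The groups overlapped and the difference of 0.53 was within the spread of the WT libraries. It was 1.28 within replicate 1 and -0.22 within replicate 2, and -0.45 without WT replicate 1, so neither direction held.

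**Figure D2:**
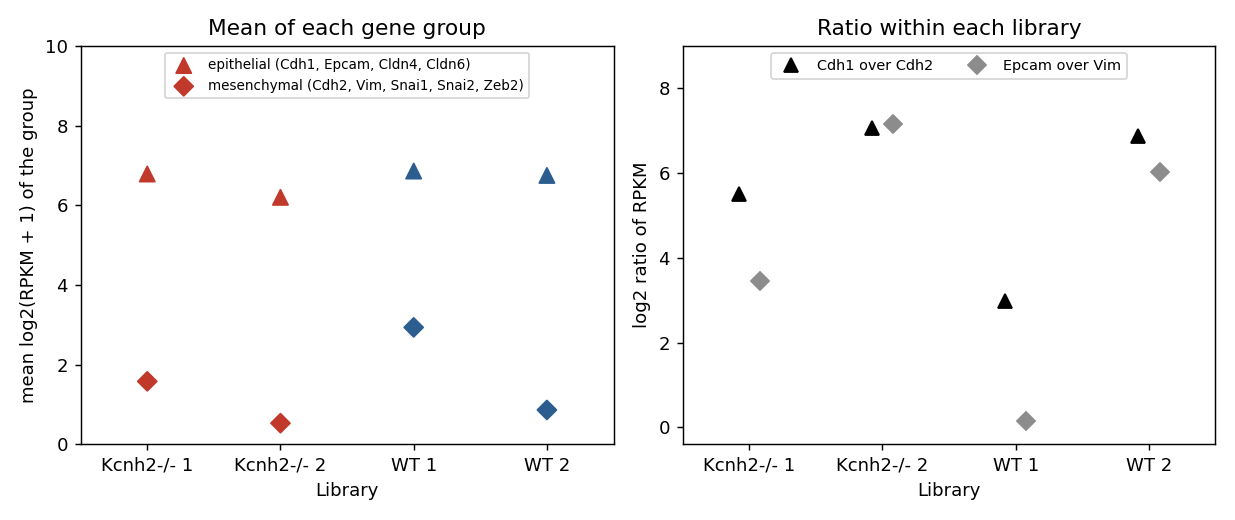
Left, mean log2(RPKM + 1) of the epithelial genes (triangles) and the mesenchymal genes (diamonds) in each library, red for Kcnh2-/- and blue for WT. Right, log2 ratio of Cdh1 to Cdh2 (triangles) and of Epcam to Vim (diamonds) within each library, with WT replicate 1 lowest for both, at 2.99 and 0.16.

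Within each library Cdh1 exceeded Cdh2 by 45.1-fold and 134-fold in Kcnh2-/- replicates 1 and 2, against 7.93-fold and 117-fold in WT replicates 1 and 2. Epcam exceeded Vim by 10.97-fold and 143-fold in Kcnh2-/-, against 1.11-fold and 64.9-fold in WT. For both ratios the Kcnh2-/- library was above the WT library of its number, by a log2 of 2.51 and 0.20 for Cdh1 over Cdh2 and of 3.30 and 1.14 for Epcam over Vim. For the cadherin ratio the genotype means differed by a log2 of 1.35, and replicates 1 and 2 by 1.57 in Kcnh2-/- and 3.88 in WT.

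Summed markers of several other cell types moved with the mesenchymal genes across libraries. In bulk RNA a smaller share of cells of a type and less RNA per cell cannot be told apart. Summed over the 7 cardiac muscle markers, RPKM came to 84.6 and 11.6 in Kcnh2-/- and 711 and 46.4 in WT. Most of each sum was Tnnc1 and Actc1, at 349 and 310 RPKM in WT replicate 1. In that library Myl7 was at 1.97, Nkx2-5 at 0.11 and Myh6 at 0.11 RPKM. Nkx2-5 was listed at 0 in Kcnh2-/- replicate 1 and WT replicate 2. The 5 definitive endoderm markers summed to 41.9 and 2.51 RPKM in Kcnh2-/- and 171 and 50.4 in WT, with none at 0. The 11 extraembryonic endoderm markers summed to 14.2 and 2.58 RPKM in Kcnh2-/- and 71.4 and 10.8 in WT, with Apoa1 and Apoa4 listed at 0 in both Kcnh2-/- libraries, Ttr at 0 in Kcnh2-/- replicate 2, and Afp and Apoa4 at 0 in WT replicate 2. The order of libraries seen for Vim and Cdh2 was also that of the cardiac, extraembryonic endoderm, primitive streak and fibroblast sums, in which WT replicate 1 was highest and Kcnh2-/- replicate 2 lowest.

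Fibroblast markers were scarce, 7 of the 8 listed being in the files. They summed to 6.59 and 0.546 RPKM in Kcnh2-/- and 23.8 and 2.19 in WT, with Col3a1 and Lum at 0 in WT replicate 2. Col1a1 and Dcn were highest in Kcnh2-/- replicate 1, at 1.40 and 1.42 RPKM, against 0.560 and 0.742 in WT replicate 1. The others of this list were highest in WT replicate 1. The 3 endothelial markers in the files summed to 0.506 and 0.224 RPKM in Kcnh2-/- and 11.8 and 0.526 in WT. The 7 primitive streak markers summed to 18.9 and 10.7 RPKM in Kcnh2-/- and 30.4 and 16.4 in WT. Among them Eomes was at 11.45 and 9.795 RPKM in Kcnh2-/- against 8.70 and 9.05 in WT. Its Kcnh2-/- libraries both lay above the WT libraries, as for 16.7% of all genes tested. The gene T was lower within each number, at 4.96 and 0.29 RPKM in Kcnh2-/- against 13.9 and 3.3 in WT, but its groups overlapped. Neither gene passed (limma adjusted p = 0.98 for both). Msgn1 was at 0 in all 4 libraries and Lhx1 at 0 in Kcnh2-/- replicate 2. The sum of pluripotency markers, 8 of 9 in the files, ran the other way at 1437 and 2640 RPKM in Kcnh2-/- and 382 and 1790 in WT. Most of each sum was Pou5f1. Within both numbers 5 of the 8 were higher in Kcnh2-/- and 1 lower, beside 30.8% and 28.1% of all genes tested. The lower 1 was Sox2, at 18.1 and 43.8 RPKM in Kcnh2-/- and 33.9 and 47.8 in WT. The trophoblast list (5 markers) summed to 45.2 and 25.2 RPKM in Kcnh2-/- and 30.1 and 32.1 in WT, and the neural list (3 of 4 in the files) to 22.4 and 17.8 in Kcnh2-/- and 52.6 and 13.5 in WT, with Pax6 at 0 in Kcnh2-/- replicate 2. The part of these cell types in the levels of Vim, Cdh2 and Zeb2 was not tested.

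**Figure D3:**
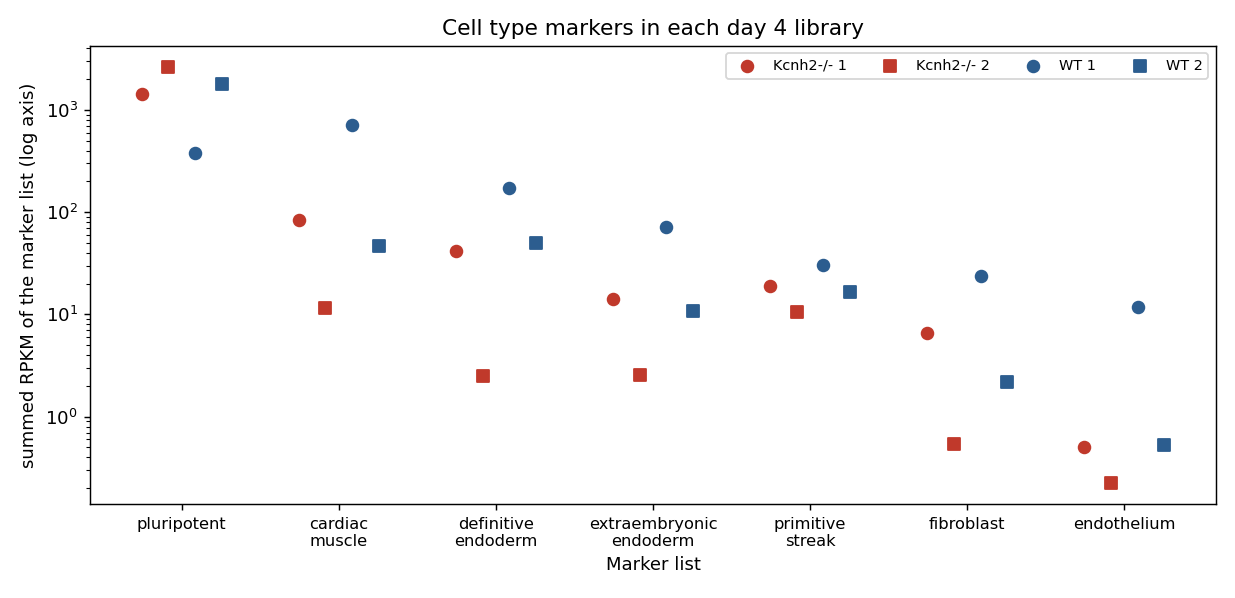
Summed RPKM of 7 cell type marker lists on a log axis, 1 point per library, red for Kcnh2-/- and blue for WT, circles for replicate 1 and squares for replicate 2. WT replicate 1 is lowest for pluripotency markers, at 382 RPKM, and highest for cardiac muscle markers, at 711 RPKM.

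Around the members, 11 lists of related genes were examined, and limma called 0 genes in each of them. At an unadjusted p under 0.05 in limma were Ctnnd1, 1 of 10 tested in its list, and Fn1, 1 of 15. The other lists held 0 such genes, beside 418 of all 12355 genes tested. Among the cadherins 5 of 10 were tested, with a median log2 difference of -1.11 against 0.00524 over all genes tested. The median was -1.72 within replicate 1 and -0.51 within replicate 2. Of the 5, 0 stood apart on the low side and 0 on the high side, beside 15.3% and 16.7% of all genes. P-cadherin (Cdh3), which lies next to Cdh1 on chromosome 19, was at 2.64 and 1.06 RPKM in Kcnh2-/- and at 10.95 and 2.54 RPKM in WT. It thus shared the peak of WT replicate 1 with Cdh2 and not the flat profile of Cdh1.

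Catenins link cadherins to actin. Of 10 catenin, nectin and related genes tested, 5 had both Kcnh2-/- libraries below both WT libraries and 0 above, beside 15.3% and 16.7% of all genes tested (median log2 difference -0.36). Ctnnd1, p120 catenin, which stabilises cadherins at the membrane, was at 51.3 and 42.4 RPKM in Kcnh2-/- and 73.7 and 75.5 in WT (log2 difference -0.67 ± 0.25 SE, limma adjusted p = 0.980). Plakoglobin (Jup) was at 15.4 and 15.1 RPKM in Kcnh2-/- and 27.5 and 22.5 in WT, and Nectin2, an immunoglobulin-like adhesion receptor, at 62.7 and 55.1 in Kcnh2-/- and 85.3 and 65.1 in WT. Beta-catenin (Ctnnb1), at 530 and 414 RPKM in Kcnh2-/- and 684 and 364 in WT, and alpha-catenin (Ctnna1), at 260 and 239 in Kcnh2-/- and 265 and 221 in WT, overlapped between genotypes. Ctnna1 shares its locus entry with other genes, which makes its value less certain.

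Of 9 claudins tested, 3 had both Kcnh2-/- libraries below both WT libraries, beside 15.3% of all genes (median -0.38). Cldn7, another epithelial claudin, was at 52.6 and 43.7 RPKM in Kcnh2-/- and 68.9 and 74.8 in WT, and Cldn12 at 11.1 and 12.5 in Kcnh2-/- and 17.4 and 19.8 in WT. Cldn14, Cldn17 and Cldn18 were listed at 0 in all 4 libraries.

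The other 17 tight junction genes were split, with 6 apart on the low side and 2 on the high side, beside 15.3% and 16.7% of all genes (median -0.24). The scaffold gene Tjp1, which encodes ZO-1, was at 21.3 and 14.9 RPKM in Kcnh2-/- and 28.1 and 26.5 in WT. The polarity gene Pard6b was at 16.9 and 19.1 RPKM in Kcnh2-/- and 26.4 and 32.6 in WT. Occludin (Ocln) was on the other side, at 54.2 and 63.8 RPKM in Kcnh2-/- and 44.9 and 52.3 in WT. F11r, a junctional adhesion molecule, was at 134 and 104 RPKM in Kcnh2-/- and 95.4 and 125 in WT, and Crb3, an apical polarity gene whose locus entry is shared, at 51.0 and 30.0 in Kcnh2-/- and 67.7 and 31.9 in WT.

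Desmosomes anchor intermediate filaments at cell contacts. Of 7 genes tested, 1 stood apart on the low side, beside 15.3% of all genes (median of the list -0.33). This was Pkp4, at 23.9 and 21.8 RPKM in Kcnh2-/- and 27.9 and 32.1 in WT. Desmoplakin (Dsp) was at 28.5 and 12.6 RPKM in Kcnh2-/- and 66.6 and 23.4 in WT, and Perp at 26.3 and 43.1 in Kcnh2-/- and 34.1 and 19.8 in WT. Counted together after their values were seen, the 4 lists of catenins and nectins, claudins, tight junction and desmosome genes held 43 tested genes, of which 15 (34.9%) stood apart on the low side in Kcnh2-/- and 2 on the high side, beside 15.3% and 16.7% of all genes. Within both numbers 25 of the 43 were lower and 3 higher, beside 28.1% and 30.8% of all genes. These genes share libraries and were not tested as a set. Ctnnd1 and Pard6b lie on chromosome 3, which was lower in Kcnh2-/- than in WT within replicate 2 as given for Zeb2.

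Besides Gja1, 4 of the 18 connexins were tested (median of the 5 -0.69). Gjc1, connexin 45, was at 3.95 and 5.47 RPKM in Kcnh2-/- and 11.3 and 7.27 in WT. Gjb5, a connexin of trophoblast and skin in the mouse, was at 6.90 and 51.1 RPKM in Kcnh2-/- and 1.65 and 24.2 in WT. Gjb5 therefore followed the replicate number more than the genotype.

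The list of Epcam partners and epithelial proteases had a median of -0.0256 over 10 tested. Of these, 2 stood apart on the low side and Epcam alone on the high side, beside 15.3% and 16.7% of all genes. The protease inhibitor gene Spint1 was at 39.3 and 40.3 RPKM in Kcnh2-/- and 51.8 and 85.1 in WT, and its target protease matriptase (St14) at 24.2 and 15.0 in Kcnh2-/- and 28.4 and 28.5 in WT. Spint2 was at 149 and 154 RPKM in Kcnh2-/- and 191 and 88.4 in WT, and the tetraspanin Cd9 at 118 and 222 in Kcnh2-/- and 155 and 132 in WT.

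Of 11 regulators that maintain epithelial identity 8 were tested (median -0.0535). On the low side 0 stood apart and on the high side 1, Ovol2, beside 15.3% and 16.7% of all genes. Grhl2, which activates Cdh1 and claudin genes in mouse epithelia, was at 18.2 and 16.0 RPKM in Kcnh2-/- and 14.3 and 16.0 in WT. The splicing factor Esrp1 was at 44.9 and 31.9 RPKM in Kcnh2-/- and 33.5 and 51.7 in WT. Klf5 was at 11.2 and 34.6 RPKM in Kcnh2-/- and 8.64 and 26.0 in WT, and Elf3 at 5.23 and 3.83 in Kcnh2-/- and 4.84 and 11.4 in WT.

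Of 15 mesenchymal switch factors in the files only 4 were tested (median -0.29), which left out Zeb1, Zeb2, Snai1, Snai2 and Foxc2 among others. The E-protein gene Tcf3 was at 47.4 and 45.7 RPKM in Kcnh2-/- and 52.9 and 56.3 in WT, and Tcf4 at 9.30 and 9.44 in Kcnh2-/- and 8.72 and 17.2 in WT. Goosecoid (Gsc), an organizer gene, was at 3.75 and 0.518 RPKM in Kcnh2-/- and 7.80 and 3.55 in WT.

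Mesenchymal and migratory markers had a median log2 difference of -0.99 over 15 tested, -1.33 within replicate 1 and -0.20 within replicate 2. Of the 15, 1 stood apart on the low side, beside 15.3% of all genes. This was fibronectin (Fn1), the matrix protein on which mesoderm migrates. Fn1 was at 48.4 and 70.8 RPKM in Kcnh2-/- and 130 and 126 in WT (limma unadjusted p = 0.0148, adjusted p = 0.980). Its receptor subunit Itga5 was at 4.23 and 1.42 RPKM in Kcnh2-/- and 12.2 and 2.77 in WT. Tagln, an actin-binding gene of smooth muscle, was at 255 and 16.7 RPKM in Kcnh2-/- and 1329 and 54.9 in WT, and Sparc at 93.0 and 58.2 in Kcnh2-/- and 159 and 45.8 in WT. Fn1 and Tagln share their locus entries with another gene.

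Keratins are the filaments that vimentin replaces in mesenchyme. Krt8 was at 531 and 53.1 RPKM in Kcnh2-/- and 1567 and 175 in WT, with WT replicate 1 highest as for Vim, while its partner Krt18 was at 253 and 255 in Kcnh2-/- and 314 and 230 in WT. The lamin genes Lmnb1, at 143 and 123 RPKM in Kcnh2-/- and 135 and 99.6 in WT, and Lmnb2, at 98.5 and 82.7 in Kcnh2-/- and 57.7 and 77.2 in WT, were the others named for this list, whose median was -0.19 over 10.

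**Figure D4:**
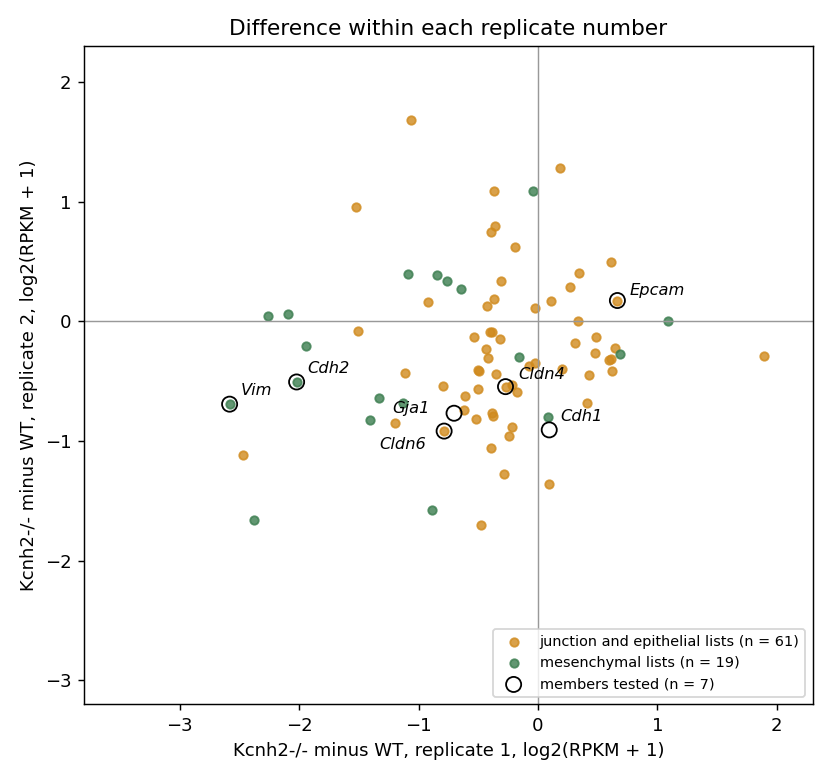
Difference in log2(RPKM + 1) between Kcnh2-/- and WT within replicate 1 (horizontal) and within replicate 2 (vertical) for 61 tested genes of the junction and epithelial lists (orange) and 19 of the mesenchymal lists (green), with the 7 tested members ringed. Vim and Cdh2 lie far left, at -2.58 and -2.02, and nearer 0 on the vertical axis, at -0.69 and -0.51.

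The genes with the profile nearest to a member's were sought among 8005 protein-coding genes averaging at least 5 RPKM, by the Euclidean distance between deviations of log2(RPKM + 1) from each gene's own mean over the 4 libraries. Nearest to Vim were Acta2 (0.602), Myl3 (0.686) and Tagln (0.706), and nearest to Cdh2 were Peg12 (0.112), Nuak1 (0.201) and Rbms1 (0.297). Epcam lay nearest to Rangap1 (0.0559), E2f4 (0.0564) and Mthfd1 (0.0567), and Cdh1 to Fkbp5 (0.0571), Kdm2a (0.106) and Zc3h13 (0.111). Acta2, for example, was at 9.85 and 0.296 RPKM in Kcnh2-/- and 40.6 and 0.491 in WT. Kdm2a, Zc3h13 and Rbms1 share locus entries as Tagln does. With 4 libraries many genes share a profile, and the distances are a description.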

How the data were processed

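Total RNA of 4 libraries was depleted of ribosomal RNA and sequenced as paired 100 bp reads from strand-marking libraries, per the labels' protocols. The submitters' processing notes name TopHat2 2.0.13, Cufflinks 2.2.1 and the build rn6 but no annotation. The authors deposited 1 table per library, with a gene identifier, symbol, locus and RPKM in each line. Values of genes with overlapping loci may have been divided in ways the files do not show; each of the 10 members has a locus of its own.

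Kcnh2-/- minus WT differences came from limma 3.58.1 (R 4.3.3), two-sided with a mean-variance trend, on values of log2(RPKM + 1), a scale that understates changes of low genes. The fit took the 12355 genes that reached 1 RPKM in 2 or more of the 4 libraries. Benjamini-Hochberg adjustment covered all of them, with a threshold of 0.05. The fit was tested on simulated data. Protein-coding genes were picked by symbol in a RefSeq gene table (GRCr8), which matched 19341 of 32753 symbols. Promoter windows are from RefSeq (GRCr8), matched by symbol. Python 3.11.15 and matplotlib 3.10.9 made the plots. Alternatives were another pseudocount, filters, scalings, variance model, gene set, a replicate term, and each library left out.

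Named were the 10 members, Kcnh2, in each list the 3 tested genes of highest mean RPKM and the 2 of smallest p, and the 3 nearest profiles of Cdh1, Cdh2, Epcam and Vim. A gene that this rule names is not reported here. Other genes were chosen after their values were seen. Members and lists were chosen with earlier results of these data known.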

Additional observations from a re-analysis of the deposited data

How the results depend on the processing

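No member was called by limma under any of 13 alternatives; the smallest adjusted p of a member was 0.163, for Vim with a replicate block over protein-coding genes alone. Epcam kept a positive and Cdh1, Cldn4, Cldn6, Gja1 and Zeb2 a negative difference in all 13, with Gja1 from -0.93 to -0.54 and Epcam from 0.16 to 0.64. The others moved further: Cdh1 ran from -0.67 to -0.14, Cldn4 from -0.80 to -0.0209 and Cldn6 from -1.35 to -0.36, each from the value without Kcnh2-/- replicate 1 to that without Kcnh2-/- replicate 2, and Zeb2 from -2.21 (pseudocount 0.1) to -0.14 (without WT replicate 1). A fit without 1 library leaves 1 sample in an arm, which is assumed to vary like the other group. Vim and Cdh2 were negative in 12, and with 1 library left out they ran from -4.17 to 0.90 (Vim) and from -2.59 to 0.0600 (Cdh2), positive without WT replicate 1; the cause was not tested. The difference of epithelial less mesenchymal means ran from -0.45 (without WT replicate 1) to 1.51 (without WT replicate 2), and was 1.03 with a pseudocount of 0.1.

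Counts of all genes called moved more. With the settings of the report 4 were higher and 10 lower in Kcnh2-/-. The higher count was 7 with a pseudocount of 0.1, 1 with median-of-ratios scaling and 8 with quantile normalization. With no filter 0 were higher and 1 lower (631 at an unadjusted p under 0.05), with no mean-variance trend 0 and 3 (451), and over protein-coding genes alone 0 and 3 (394). Leaving out 1 library gave 0 to 9 higher and 3 to 10 lower. Deviations of same-numbered libraries correlated (0.381 over 12355 genes), but 2 pairs do not show that the numbers pair samples. A replicate block called 14 higher and 14 lower, and 57 higher and 25 lower over protein-coding genes alone. Read depth is unknown, which limits Snai1, Snai2 and Zeb2 most.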

Other observations

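Some junction genes followed the replicate number in both genotypes; they were picked after their values were seen and have no test. Jam2, a junctional adhesion molecule, was at 3.33 and 16.1 RPKM in Kcnh2-/- replicates 1 and 2 and at 1.83 and 11.1 in WT replicates 1 and 2. Tjp3, which encodes the scaffold ZO-3, was at 15.2 and 29.2 RPKM in Kcnh2-/- and 9.32 and 34.4 in WT. Both share their locus entries with other genes. The pluripotency gene Nanog, whose locus entry also covers Dppa3, was likewise higher in replicate 2 of each genotype. It was at 8.70 and 74.2 RPKM in Kcnh2-/- and 2.50 and 72.6 in WT.

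Some mesenchymal genes were above 5 RPKM in WT replicate 1 alone. Foxc1 was at 0.283 and 0.0661 RPKM in Kcnh2-/- and 8.50 and 0.0340 in WT, and the matrix gene Vcan at 0.254 and 0.0347 in Kcnh2-/- and 10.8 and 0.118 in WT. S100a4 differed from these, with Kcnh2-/- at 8.87 and 0.114 RPKM and WT at 3.64 and 0.114. Cldn5, a claudin of endothelium whose locus entry is shared, was highest in Kcnh2-/- replicate 2, at 0.942 and 17.7 RPKM in Kcnh2-/- and 3.05 and 4.82 in WT.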
